A study of Rattus norvegicus with 6 samples.

Results

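Kinesins, myosins, tubulins, keratins and their partners are the genes that build and use the cytoskeleton. Those described here were chosen by symbol from the genes that the study had called different between embryonic day 15 (E15) and adult choroid plexus, so they were selected on the same counts that are given below. They are 96 of the 29479 gene identifiers counted. They comprise 25 kinesin heavy chains, 2 kinesin light chains, 19 genes with a myosin-type symbol, 7 tubulins, 12 keratins, and the actins, tropomyosins, lamins, spectrins and protein 4.1 genes. Because a difference between the ages decided which genes have a name in these data, every difference between the ages below is a description and none supports another. Cytoskeletal genes that the study had not called were not analysed here.

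The samples were lateral ventricular choroid plexuses of untreated Sprague-Dawley rats, from E15 embryos of timed-pregnant dams or from non-pregnant adults of 6 weeks. Each of the 3 pools at each age held both plexuses of 10 animals, and gave 1 RNA sequencing library. The plexus was taken whole, so that stroma, vessels and blood were sequenced together with the epithelium, and fewer cells of a type cannot be told apart from less RNA per cell in such pools. Pools hold different animals, but nothing says how dams or litters were divided among them.

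Microtubules are polymers of alpha and beta tubulin that serve as tracks for kinesins and, during division, form the spindle. Actin filaments are the tracks of myosins and carry the microvilli and the apical belt of an epithelium, whereas keratins, vimentin, desmin and neurofilaments are intermediate filaments that differ by cell type, and lamins form the meshwork under the nuclear envelope. The choroid plexus epithelium is a simple epithelium with a microvillous apical surface that secretes cerebrospinal fluid, and it buds from a dividing neuroepithelium in the embryo.

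The libraries held 17875089 to 19204440 counts. The 16643 genes above 10 counts in all were tested, including all 96 of these genes. A gene was called when its Benjamini-Hochberg adjusted p was under 0.05 in edgeR's quasi-likelihood test. E15 pool 1 stood apart, since its Spearman correlation was 0.973 with pool 2 and 0.978 with pool 3 over genes, compared with 0.996 for pools 2 and 3. All 9 measured markers of choroid plexus epithelium were detected at both ages and higher in the adult (median log2 fold change -3.16). Markers of other cells were present too, and all 10 endothelial, 8 erythroid, 7 neural progenitor and 11 proliferation genes measured were higher at E15. Any gene with a name here had been called by the study, which raises the share called in each of these lists.

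Of all genes tested, 64% were called, 34.7% as higher at E15 and 29.3% as higher in the adult. Among the 96 cytoskeletal genes 66 were called at E15 and 23 in the adult, counts that the choice of the genes had largely fixed and from which nothing is read. The other 7 genes (*Kif2b*, *Myh13*, *Myo3b*, *Acta1*, *Krt26*, *Krt76* and *Sptbn4*) had been called by the study and were not called here. Normalized counts of the ages did not overlap for 70.1% of all genes tested, with E15 above in 38% and the adult above in 32.1%, and for the 96 genes with E15 above in 67 and the adult above in 25. The genes together took 1.75% to 1.95% of all counts at E15 and 0.720% to 0.731% in the adult. The median log2 fold change was 1.80 over the 96 genes, or 1.72 with the 7 genes that had 0 counts in the adult set at their lower bound, compared with 0.14 over all genes tested. Log2 fold changes are fitted, are positive where a gene was higher at E15, and are followed by their standard error (SE, 3 pools at each age).

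Among the 96 genes, fitted differences towards E15 reached higher values than those towards the adult. Of the 66 genes called at E15, 58 were over 2-fold, 24 over 10-fold and 5 over 100-fold higher, with the 6 among them that had 0 adult counts taken at their lower bound. Of the 23 called in the adult 15 were over 2-fold, 3 over 10-fold and 0 over 100-fold. Over all genes tested, 4141 of the 5773 called at E15 and 2979 of the 4879 called in the adult were over 2-fold. The numbers over 10-fold and 100-fold were not taken over all genes, so nothing is read from these counts. The genes with the smallest called differences were *Sptbn1*, 1.48-fold higher in the adult, *Myh9*, 1.49-fold higher at E15, and *Kif9*, 1.50-fold higher in the adult, of which *Sptbn1* and *Kif9* turned to the E15 side when libraries were scaled by total counts only, a scaling that moved the median of all genes tested to 0.95. Genes just outside the threshold of the study carry no name here. The plot of changes by role shows that mitotic kinesins and tropomyosins lay on the E15 side without exception, and that most other families had members on both sides.

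**Figure D1:**
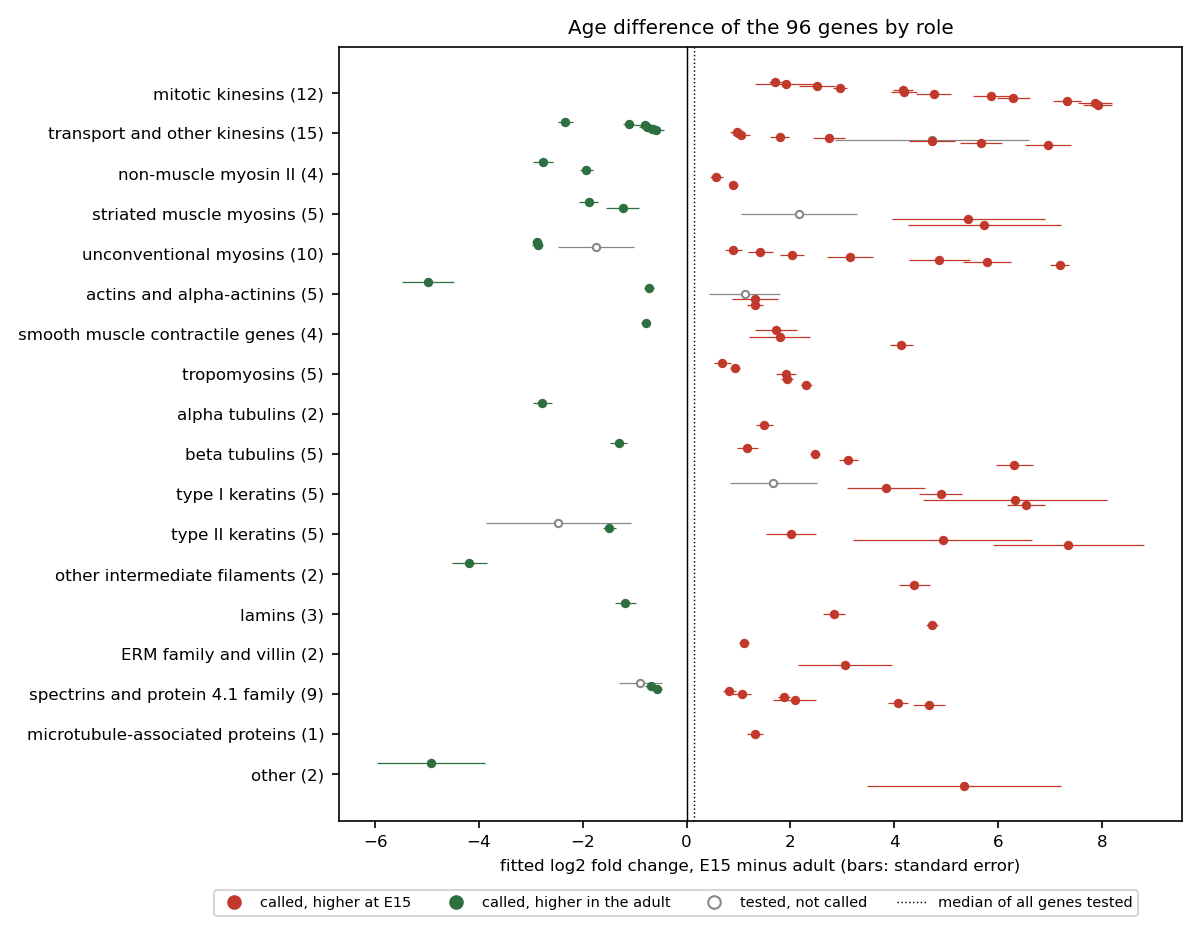
Fitted log2 fold change (x axis, E15 minus adult, bars are the SE from 3 pools at each age) of each of the 96 genes, in rows by role with the number of genes in brackets. Red points were called at E15, green points in the adult and open grey points were not called. The 12 mitotic kinesins spread from 1.71 to 7.92, and the dotted line is the median of all genes tested, 0.14.

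The largest fitted differences among the 96 genes, 7.92 and 7.88, were those of 2 mitotic kinesins. Mitotic kinesins are the motors that assemble the spindle, move chromosomes and complete the division of the cell. The list used here also holds *Kif24*, a kinesin of the centriole. It leaves out *Kif2b*, the relative of *Kif2c*, which was not called (below). All 12 genes of that list were called at E15, with a median log2 fold change of 4.48. Because these genes moved together, the sequence around their start sites is shown for 3 of them, each given as the 300 bases from 250 before to 50 after the annotated start (RefSeq, assembly GRCr8), together with those of the beta tubulins *Tubb5* and *Tubb2c*, whose ages of higher expression were opposite (below). Capitals mark CCAAT, the CCAAT box, and TTTGAA, the cell cycle homology region (CHR) sequence, each searched on both strands, so that ATTGG and TTCAAA are the same elements read from the other strand. No marked element overlaps another in the sequences shown.
Kif22 (chr1:191080829-191081128, minus strand): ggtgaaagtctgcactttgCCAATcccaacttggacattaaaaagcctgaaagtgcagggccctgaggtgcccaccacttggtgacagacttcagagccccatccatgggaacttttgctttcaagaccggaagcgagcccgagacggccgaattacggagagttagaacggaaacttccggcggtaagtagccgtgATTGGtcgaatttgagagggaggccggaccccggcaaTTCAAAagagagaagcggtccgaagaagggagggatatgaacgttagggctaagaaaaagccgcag
Kif4 (chrX:69761633-69761932, plus strand): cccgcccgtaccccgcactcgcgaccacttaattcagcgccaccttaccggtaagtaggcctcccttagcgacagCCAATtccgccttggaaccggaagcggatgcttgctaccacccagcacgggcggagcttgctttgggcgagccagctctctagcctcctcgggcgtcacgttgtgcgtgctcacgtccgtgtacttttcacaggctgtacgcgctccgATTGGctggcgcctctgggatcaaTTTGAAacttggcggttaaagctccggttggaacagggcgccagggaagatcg
Kif11 (chr1:244536617-244536916, plus strand): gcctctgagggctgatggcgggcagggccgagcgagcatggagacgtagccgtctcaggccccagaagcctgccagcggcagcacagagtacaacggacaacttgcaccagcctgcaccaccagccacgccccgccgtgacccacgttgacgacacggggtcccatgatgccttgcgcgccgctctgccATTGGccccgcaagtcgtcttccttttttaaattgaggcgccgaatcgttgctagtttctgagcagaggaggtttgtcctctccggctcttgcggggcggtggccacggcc
Tubb5 (chr20:2917327-2917626, plus strand): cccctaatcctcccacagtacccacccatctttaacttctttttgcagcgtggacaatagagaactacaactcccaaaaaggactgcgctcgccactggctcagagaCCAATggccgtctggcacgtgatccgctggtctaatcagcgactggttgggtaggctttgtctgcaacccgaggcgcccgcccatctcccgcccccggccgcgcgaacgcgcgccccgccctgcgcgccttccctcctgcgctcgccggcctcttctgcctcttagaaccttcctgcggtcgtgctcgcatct
Tubb2c (chr3:28438406-28438705, minus strand): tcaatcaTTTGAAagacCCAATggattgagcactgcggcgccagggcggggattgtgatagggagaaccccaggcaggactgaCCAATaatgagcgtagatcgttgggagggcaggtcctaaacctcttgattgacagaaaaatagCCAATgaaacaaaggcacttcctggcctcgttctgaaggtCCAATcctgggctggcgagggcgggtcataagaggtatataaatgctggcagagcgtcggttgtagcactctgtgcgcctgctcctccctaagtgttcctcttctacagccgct
The windows of *Kif22* and *Kif4* each held 2 CCAAT boxes and 1 TTTGAA, whereas that of *Kif11* held 1 CCAAT box and no TTTGAA. A promoter was found for 76 of the 96 genes, among them 11 of the 12 mitotic kinesins. CCAAT was present in 7 of these 11 and in 37.7% of all 27457 promoters of the same length, and TTTGAA in 5 of 11 and in 18.1% of all. Both were found in 4 of the 11 (*Kif20b*, *Kif22*, *Kif23* and *Kif4*) and in 7.25% of all promoters. Of the 5 beta tubulin windows 4 held CCAAT, including 4 copies in that of *Tubb2c* and 1 in that of *Tubb5*. *Tubb2c* also held 1 TTTGAA and was the beta tubulin with both elements. Over the 76 promoters CCAAT was present in 39.5%, TTTGAA in 13.2% and both in 11.8%. The CArG box, the element of serum response factor, was found in 1.64% of all promoters and in 5 of the 76, 2 of them among the 4 promoters of actins and alpha-actinins. These are matches of letters only, and their part in the differences between the ages was not tested.

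*Kif18b*, which shortens astral microtubules, had 647, 749 and 808 counts in E15 pools 1, 2 and 3, and 2, 1 and 2 counts in the adult pools in the same order, which is used throughout. *Kif22*, a chromokinesin that pushes chromosome arms to the spindle equator, had 2279, 2103 and 2205 counts at E15 versus 5, 1 and 10 in the adult. *Kif4*, the other chromokinesin of the set, had 1628, 1237 and 1347 counts at E15 versus 6, 3 and 6 in the adult. Adult counts of all 3 were within 10 of 0, and the fitted log2 fold changes were 7.92 (SE 0.28) for *Kif18b*, 7.88 (SE 0.33) for *Kif22* and 7.33 (SE 0.27) for *Kif4*, or 242-fold, 235-fold and 161-fold. Without adult pool 3 *Kif22* was 407-fold higher at E15.

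*Kif11*, the motor that slides spindle poles apart, had 2882, 1888 and 2023 counts at E15 versus 21, 9 and 20 in the adult, a log2 fold change of 6.30 (SE 0.32, 78.7-fold). *Kif15*, which shares that task, had 1817, 1072 and 1157 counts at E15 versus 16, 7 and 17 in the adult (5.87, SE 0.35). Both were highest in E15 pool 1 and lowest in adult pool 2. *Kif20b*, *Kif23* and *Kif20a* act in cytokinesis, and their log2 fold changes were 4.76 (SE 0.34), 4.19 (SE 0.25) and 2.96 (SE 0.14). *Kif20a* had 2480, 2272 and 2299 counts at E15 and kept 149, 205 and 173 in the adult, so that it was 7.80-fold higher at E15. *Kif2c*, a microtubule depolymerase of the centromere, was at 4.17 (SE 0.19), and *Kif18a*, which aligns chromosomes, at 2.52 (SE 0.35). The smallest difference was that of *Kif24*, a kinesin of the centriole, with 869, 851 and 912 counts at E15 versus 146, 162 and 159 in the adult (1.71, SE 0.13). *Kif4b* had 29 to 34 counts at E15 and 1 to 7 in the adult, and, as reads without a unique place were discarded, its counts and those of *Kif4* are uncertain where their sequences are alike.

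The relative use of the mitotic kinesins differed between the ages as well, measured as shares of their summed counts in a pool, which no scaling of the libraries alters. *Kif22* made up 14.1% ± 1.43 of these counts at E15 (SD, n = 3, as for all shares below) and 1.01% ± 0.870 in the adult. For *Kif11* the shares were 14.3% ± 1.27 and 3.11% ± 1.36. In the opposite direction *Kif20a* went from 15.1% ± 1.38 to 32.1% ± 3.55 and *Kif24* from 5.66% ± 0.786 to 28.6% ± 1.52. The few counts of the 12 listed genes left in the adult were thus mostly those of *Kif20a* and of *Kif24*, the kinesin of the centriole. Shares were also taken of the summed counts of the kinesin and light chain genes described here. The 12 mitotic genes took 50.9%, 39.6% and 40.9% in E15 pools 1, 2 and 3 and 2.23% to 2.42% in the adult pools. Those sums cover 25 of 43 kinesin heavy chain and 2 of 4 light chain genes of RefSeq.

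E15 pool 1 was the highest E15 pool for 10 of the 12 mitotic kinesins and pool 2 the lowest for 10 of them, by normalized counts. Over all genes tested pool 1 was the highest in 40.5% and pool 2 the lowest in 30.6%. The median log2 ratio of pool 1 to the other E15 pools was 0.34 for the mitotic kinesins and -0.05 for all genes tested. In the same pool it was 0.17 for 9 spindle and cytokinesis partners, -0.01 for 11 proliferation genes, 0.63 for 7 neural progenitor genes and 1.31 for 11 genes of developing neurons, and their part in the result was not tested. Partners that are not themselves kinesins were also higher at E15. All 9 of the 12 listed spindle and cytokinesis genes that have a name here were called at E15 (median log2 fold change 5.84), as were the 11 of 12 proliferation genes (median 5.76, 3 of them in both lists).

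**Figure D2:**
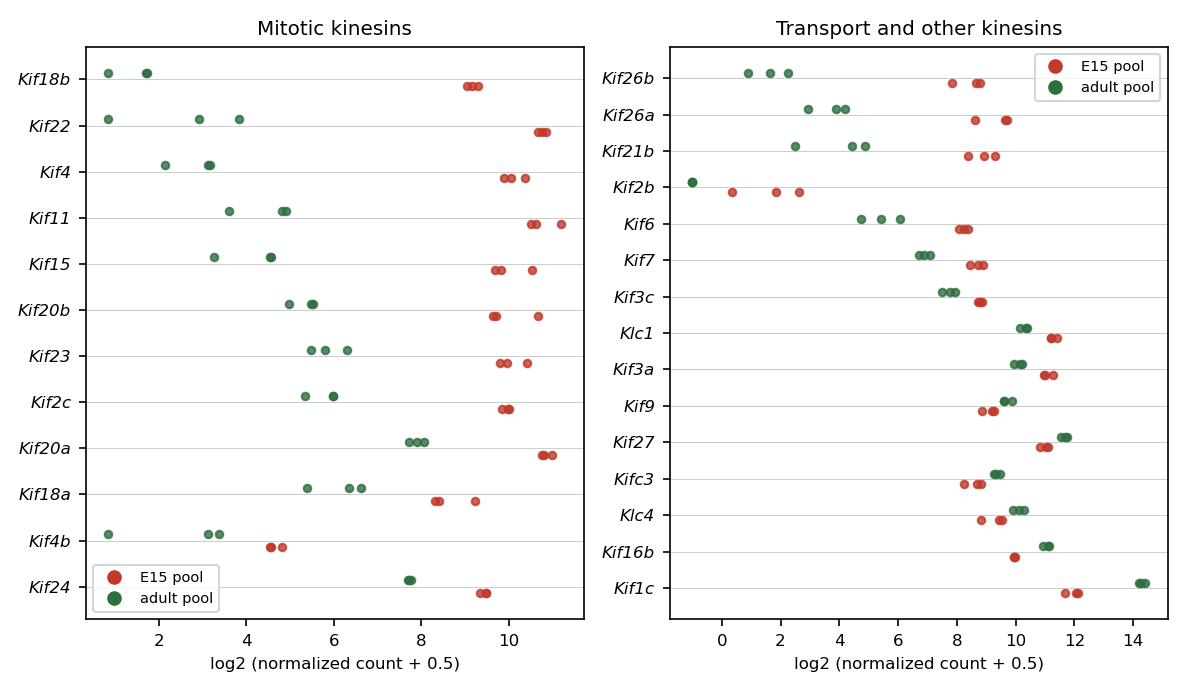
Counts of 12 mitotic kinesins (left) and 15 transport and other kinesin genes (right), as log2 of the normalized count plus 0.5, with 1 point for each of 3 E15 (red) and 3 adult (green) pools. E15 points lie to the right of adult points for every mitotic kinesin, whereas the lowest 6 genes of the right panel lie the other way, 3 of which (*Kif9*, *Kif27* and *Kifc3*) turn with total counts only.

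The transport and other kinesins are all the kinesin and light chain genes outside the mitotic list, so not all of them carry cargo or serve cilia. They were divided, with 8 of 15 called at E15 and 6 in the adult. *Kif1c*, a long-distance carrier of vesicles, was the gene of this group with the largest difference towards the adult. It had 3976, 5788 and 5406 counts at E15 versus 15351, 15102 and 13781 in the adult, every adult pool above every E15 pool, for a log2 fold change of -2.33 (SE 0.14) or 5.04-fold. Its share in the counts of the kinesin and light chain genes described here was 14.1% ± 2.74 at E15 and 63.6% ± 1.17 in the adult. Kinesins that the study had not called are not in this sum. *Kif16b*, which moves early endosomes, had 1226, 1269 and 1253 counts at E15 versus 1551, 1518 and 1649 in the adult (-1.12, SE 0.10, 2.17-fold). *Klc4*, *Kifc3*, *Kif27* and *Kif9* were also called in the adult, at 1.50-fold to 1.75-fold, but with total counts only *Kif9* (0.22), *Kif27* (0.14) and *Kifc3* (0.049) turned to the E15 side.

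Towards E15 the differences were larger. *Kif26b* had 277, 572 and 512 counts at E15 versus 3, 2 and 1 in the adult (6.97, SE 0.45, 125-fold), and its relative *Kif26a* 481, 1043 and 1070 against 5, 11 and 13 (5.68, SE 0.40, 51.2-fold). Both belong to a family of kinesins that do not walk along microtubules, and both were lowest at E15 in pool 1. *Kif21b*, a motor of neurons, had 775, 435 and 624 counts at E15 versus 15, 4 and 21 in the adult (4.73, SE 0.44). Its highest E15 value was in pool 1 and its lowest in pool 2, an order shared with the developing neuron markers and with most mitotic kinesins. In the adult *Kif21b* was lowest in pool 2, where the summed developing neuron markers were highest. The part of these markers in its values was not tested. *Kif7*, a regulator of Hedgehog signalling at the tip of the cilium, had 428, 614 and 534 counts at E15 versus 96, 81 and 85 in the adult (1.80, SE 0.19), whereas its closest relative *Kif27* had 2216, 2745 and 2771 and 2406, 2545 and 2183 (-0.67, SE 0.11, or 0.14 with total counts only).

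*Kif3a*, a subunit of the motor of intraflagellar transport, had 3013, 2577 and 2598 counts at E15 versus 704, 868 and 862 in the adult (0.97, SE 0.13). *Klc1*, a light chain of conventional kinesin, had 2908, 3078 and 3432 and 913, 1021 and 821 (0.99, SE 0.11), so the light chains *Klc1* and *Klc4* were higher at opposite ages. *Kif6* and *Kif9*, kinesins of the ciliary axoneme, were opposite as well except with total counts only, *Kif6* being 6.72-fold higher at E15 (2.75, SE 0.31). *Kif3c* was 2.08-fold higher at E15. *Kif2b* had 7, 4 and 1 counts at E15 and 0 in every adult pool, at least 2.32-fold higher if the adult pools together are held to a floor of 3 counts, and was not called except without E15 pool 3 (at least 3.21-fold). Of the cytoplasmic dynein and dynactin genes, the motor that runs the other way, 10 of 17 listed have a name here, 6 called at E15 and 4 in the adult, where *Dynlt3* had the largest difference (-3.20) and *Dynlt1* the largest towards E15 (1.55).

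Non-muscle myosin II heavy chains form the contractile filaments of most cells, and each of the 3 had its own pattern. *Myh14*, the heavy chain found above all in epithelia, had 321, 534 and 563 counts at E15 versus 1919, 1998 and 1675 in the adult (-2.77, SE 0.19, 6.82-fold). *Myh10* had 13926, 14728 and 13868 counts at E15 versus 4277, 4628 and 4299 in the adult (0.90, SE 0.09, 1.87-fold), and *Myh9* 12483, 18198 and 16815 against 6194, 6592 and 5722 (0.57, SE 0.13, 1.49-fold). The share of *Myh14* among the counts of the 3 heavy chains went from 1.53% ± 0.305 to 15.0% ± 0.596, that of *Myh10* from 46.8% ± 4.56 to 35.4% ± 1.17, and that of *Myh9* stood at 51.6% ± 4.28 and 49.6% ± 0.586. *Mylip*, taken in by its symbol, is no myosin but the ubiquitin ligase that degrades the LDL receptor. It had 440, 410 and 454 counts at E15 versus 889, 1088 and 920 in the adult (-1.93, SE 0.12).

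Genes of striated muscle myosin had few counts, except one. The gene named *Myh2*, which the table of the authors describes as myosin-4, had 380, 483 and 341 counts at E15 versus 998, 707 and 865 in the adult (-1.89, SE 0.19, 3.70-fold), and its counts are uncertain because the fast myosin heavy chains are near-identical neighbours. *Mylpf*, the light chain of fast skeletal muscle, had 41, 27 and 36 and 45, 52 and 46 counts, which after scaling was 2.35-fold higher in the adult (-1.23, SE 0.31). *Myl3* and *Mylk3*, of cardiac and slow muscle, had 5 to 12 and 5 to 8 counts at E15 and 0 in the adult, at least 4.84-fold and 3.87-fold higher. *Myh13*, of eye muscles, had 13, 7 and 5 against 3, 0 and 0, a ratio of 4.84 (exact 95% interval 1.48 to 25.0), and was called without adult pool 1 alone (at least 3.29-fold). Of 20 listed sarcomere partners 7 have a name here and 6 were tested, 5 called at E15 and 1, *Mybpc2*, in the adult (-1.01). The 5 include *Actc1* (1.23), which the same table describes as aortic smooth muscle actin, so its place in this list is uncertain. A list of 10 skeletal muscle genes had 5 with a name, of which *Myog*, *Tnnt3*, *Mybpc1* and *Casq1* were higher at E15 and *Pygm* in the adult (-2.69), and summed to 638 to 859 normalized counts at E15 and 3424 to 4091 in the adult, mostly through *Pygm*. Their part in the results of these myosins was not tested.

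Unconventional myosins move membranes and organelles along actin. *Myo5b*, the motor of apical recycling endosomes in epithelia, had 855, 947 and 976 counts at E15 versus 4016, 3970 and 3905 in the adult (-2.88, SE 0.10, 7.38-fold). *Myo1d*, a single-headed myosin of class I, had 722, 863 and 827 and 3426, 3430 and 3336 (-2.87, SE 0.11, 7.29-fold). Pools of an age lay close together for both genes, and every adult pool was above every E15 pool.

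*Myo9b* had 2028, 3314 and 3004 counts at E15 versus 935, 870 and 776 in the adult (0.90, SE 0.17). *Myo15* and *Myo3b* are myosins of hair cell stereocilia. *Myo15* had 261, 509 and 406 counts at E15 versus 2, 2 and 8 in the adult (5.79, SE 0.46, 55.3-fold, or 107-fold without adult pool 3), whereas *Myo3b* had 1 to 5 and 6 to 8 counts and was not called. *Myo15b* had 83, 134 and 99 against 2, 4 and 0 counts (4.87, SE 0.59, 29.3-fold), and without adult pool 2 the ratio was 59.7 (16.4 to 495). *Myo16*, expressed chiefly in brain, was at 158, 201 and 195 against 16, 17 and 3 (3.15, SE 0.45). *Myo1a*, a myosin of brush border microvilli, was at 2.04 (SE 0.23) and *Myo1f*, a myosin of leukocytes, at 1.42 (SE 0.24). Of 6 macrophage markers measured 3 were called at E15 and 2 in the adult, with sums of 2201 to 2596 normalized counts at E15 and 1440 to 1630 in the adult, and their part in the value of *Myo1f* was not tested.

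**Figure D3:**
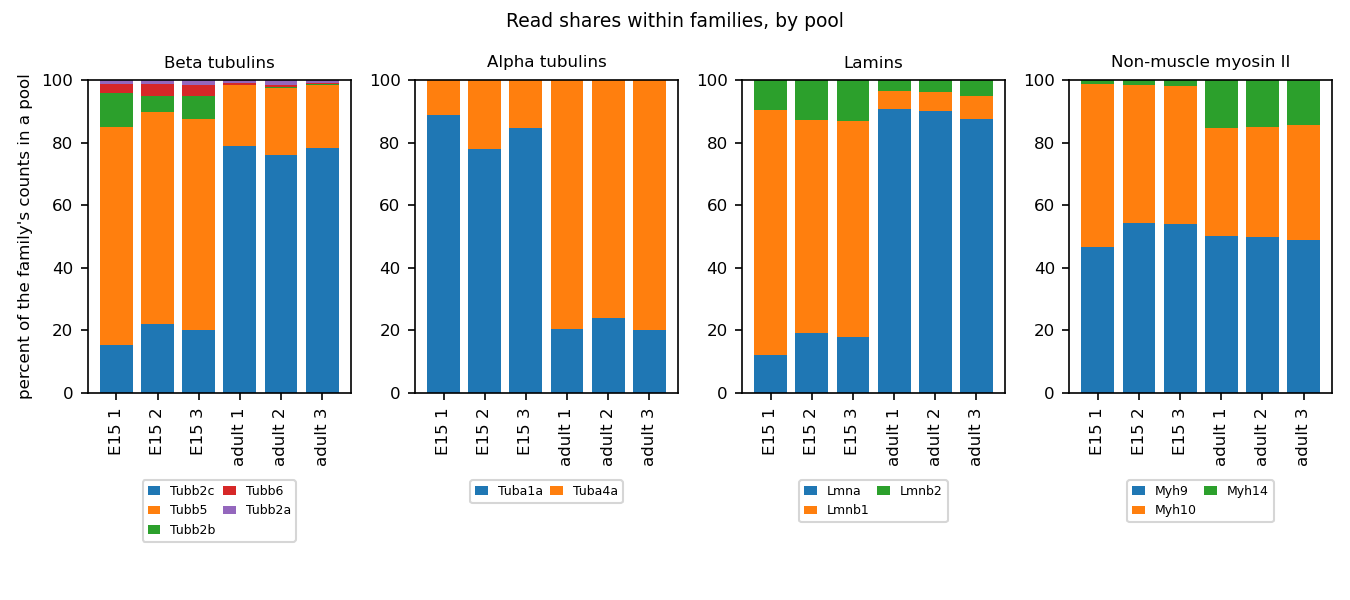
Share of each gene in the summed counts of those genes of its family that are described here (y axis, percent), for 4 families. Bars are the 6 pools (x axis). The leading gene changes between the ages for tubulins (*Tubb5* 68.3% at E15, *Tubb2c* 77.7% in the adult) and lamins (*Lmnb1* 71.9%, *Lmna* 89.4%).

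Tubulins are the subunits of the microtubule, and those described here are 7 of 16 alpha and beta tubulin genes of RefSeq. In both families some of them were higher at E15 and others in the adult. *Tubb5*, a beta tubulin of dividing cells, had 43112, 45514 and 49371 counts at E15 versus 4832, 4882 and 4774 in the adult (2.47, SE 0.10, 5.53-fold). *Tubb2c*, now called *Tubb4b*, a beta tubulin found in most tissues and in cilia, had 9482, 14836 and 14541 counts at E15 versus 19707, 17147 and 18503 in the adult (-1.30, SE 0.16, 2.47-fold). The shares in the summed counts of the beta tubulins described here were 68.3% ± 1.15 and 20.4% ± 1.12 for *Tubb5* and 19.1% ± 3.44 and 77.7% ± 1.66 for *Tubb2c*. Other beta tubulins are not in this sum. The promoters of *Tubb5* and *Tubb2c* are among those shown above.

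*Tubb2b*, a beta tubulin needed for the migration of cortical neurons, had 6754, 3494 and 5409 counts at E15 versus 36, 57 and 22 in the adult (6.32, SE 0.36, 79.7-fold). It was highest at E15 in pool 1 and lowest in pool 2, and highest among the adult pools in pool 2. The genes of developing neurons had the same order at E15 and were also highest among the adult pools in pool 2, with 11 of 12 measured, 10 called at E15, and sums of 4170, 980 and 2448 normalized counts in E15 pools 1, 2 and 3 against 76.5, 593 and 121 for the adult. Their part in the values of *Tubb2b* was not tested. *Tubb2a*, separated from *Tubb2b* by 1 gene in the rat genome, had 848, 865 and 1200 and 215, 337 and 206 counts (1.17, SE 0.20), and the sequences of the pair are alike, so both counts are uncertain. *Tubb6* had 1729, 2604 and 2471 and 151, 182 and 121 counts (3.12, SE 0.19, 8.69-fold).

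Of the alpha tubulins, *Tuba1a*, the form of the developing brain, had 3588, 2701 and 4020 counts at E15 versus 693, 789 and 640 in the adult (1.50, SE 0.16, 2.83-fold). *Tuba4a*, an alpha tubulin whose gene encodes no terminal tyrosine, had 457, 767 and 731 at E15 versus 2696, 2501 and 2547 in the adult (-2.78, SE 0.18, 6.86-fold). *Tuba1a* made up 83.7% ± 5.46 of the summed counts of these 2 genes at E15 and 21.5% ± 2.15 in the adult, *Tuba4a* the rest. Other alpha tubulins are not in this sum. *Map1b*, a microtubule-associated protein of growing axons, had 28073, 19927 and 20966 counts at E15 versus 4760, 5663 and 5659 in the adult (1.32, SE 0.15, 2.50-fold), and was highest at E15 in pool 1. Of 22 listed microtubule regulators 12 have a name here, 8 called at E15, among them *Stmn1* (3.11) and *Tppp3* (3.21), and 4 in the adult (*Camsap2*, *Mapre3*, *Tppp* and *Clasp2*, -1.90 to -1.11).

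Actin itself was higher at E15. *Actb*, the cytoplasmic beta actin, had 43408, 68431 and 68210 counts at E15 versus 13029, 14990 and 13808 in the adult (1.32, SE 0.15, 2.49-fold), with the lowest E15 value in pool 1. The identifier named *Actg1* had only 51, 76 and 76 counts at E15 versus 24, 16 and 7 in the adult (1.31, SE 0.45), is uncertain because actin copies share sequence, and was not called without E15 pool 2 or 3 or adult pool 2 or 3. *Actn1*, the alpha-actinin of most cells, had 2129, 2228 and 2030 and 1948, 2182 and 2022 counts, 1.66-fold higher in the adult after scaling (-0.73, SE 0.10) and reversed to 0.077 when only total counts were used. *Actn2*, the alpha-actinin of the muscle Z disc, had 1, 7 and 6 counts at E15 versus 102, 68 and 93 in the adult (-4.98, SE 0.50, 31.6-fold), the largest fitted difference towards the adult among the 96 genes. *Acta1*, skeletal muscle actin, had 10, 23 and 20 against 6, 7 and 1 counts and was not called. Of 32 listed genes of actin turnover 12 have a name here, 7 called at E15, among them *Tmsb10* (2.77), *Tmsb4x* (2.29) and *Pfn1* (1.61), and 4 in the adult, among them *Arpc5l* (-1.36) and *Dstn* (-1.34).

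Of the 4 genes grouped with smooth muscle 3 were called at E15 and 1 in the adult. They are not specific to smooth muscle as a group, and *Acta2*, *Tagln*, *Cnn1* and *Myh11* are not among the genes described here. *Tagln2*, an actin-binding protein related to transgelin, had 3485, 4400 and 4167 counts at E15 versus 88, 183 and 128 in the adult (4.14, SE 0.22, 17.6-fold). *Des*, the intermediate filament of muscle and of pericytes, had 107, 168 and 166 and 12, 44 and 22 counts (1.72, SE 0.41, 3.30-fold). Both were lowest at E15 in pool 1 and highest among the adult pools in pool 2. *Actg2*, enteric smooth muscle actin, had 18, 33 and 70 against 5, 8 and 7 counts (1.79, SE 0.58) and was not called without E15 pool 3, adult pool 1 or adult pool 3. *Cnn3*, the calponin of non-muscle cells, had 13858, 15470 and 15442 and 14933, 14866 and 15007 counts (-0.79, SE 0.09, 1.73-fold higher in the adult), and with total counts only its log2 fold change was 0.019. Of the 10 markers of vascular smooth muscle and pericytes, all with a name here, 9 were called at E15 and *Lmod1* in the adult, with sums of 7242 to 10098 normalized counts at E15 and 1077 to 1526 in the adult, none at 0 at either age. Their median ratio of a pool to the others was -0.44 in E15 pool 1 and 0.36 in adult pool 2, and their part in the values of *Des* and *Tagln2* was not tested.

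All 5 tropomyosins, which wrap actin filaments, were called at E15. *Tpm3* had 4849, 5703 and 5640 counts at E15 versus 610, 716 and 573 in the adult (2.31, SE 0.11, 4.95-fold), and *Tpm4* 4625, 5984 and 5877 and 784, 832 and 877 (1.94, SE 0.12, 3.83-fold). *Tpm1*, given as *Tpm1_v6*, had 4525, 4772 and 4645 and 1445, 1483 and 1320 counts (0.93, SE 0.10, 1.91-fold), and *Tpm2* 1024, 1260 and 918 and 363, 341 and 448 (0.69, SE 0.16, 1.61-fold). *Tpm3* and *Tpm4* thus had larger differences than *Tpm1* and *Tpm2*, and the share of *Tpm1_v6* in tropomyosin counts went from 27.2% ± 1.47 to 42.3% ± 2.10 while that of *Tpm3* went from 31.4% ± 0.630 to 18.9% ± 1.70. *Tpm3-rs7*, a copy related to *Tpm3*, had 665, 515 and 470 and 81, 88 and 87 counts (1.91, SE 0.19) and may share reads with it.

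Keratins form filaments from a type I and a type II partner. *Krt1-5* and *Krt42* were placed in neither type group because of their symbols. RefSeq gives *Krt1-5* as *Krt36*, a type I symbol, and it was called in the adult (below). Among the 10 keratins grouped as type I or type II, the one called in the adult was *Krt8*, the type II keratin of simple epithelia. *Krt8* had 1291, 1696 and 1631 counts at E15 versus 2580, 2612 and 2308 in the adult (-1.49, SE 0.12, 2.80-fold). Its share of the counts of the 12 keratins was 64.2% ± 3.58 at E15 and 98.7% ± 0.358 in the adult. RefSeq holds 55 keratin genes, and keratins other than these 12 are not in this sum. *Krt19*, a type I keratin of simple epithelia, had 205, 422 and 371 counts at E15 versus 10, 5 and 4 in the adult (4.90, SE 0.42, 29.8-fold). *Krt28*, a type I keratin of the hair root sheath, had 314, 350 and 500 against 3, 2 and 2 (6.54, SE 0.36, 92.8-fold). These 3 genes together made up most counts of the 12 keratins in every pool.

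The other keratins described here had at most 58 counts in any pool. *Krt7*, of simple and glandular epithelia, had 8, 36 and 34 counts at E15 and 0 in each adult pool, at least 15.1-fold higher. *Krt17*, of skin appendages, had 28, 58 and 44 against 1, 4 and 0 (3.84, SE 0.74, 14.4-fold), and without adult pool 2 the ratio was 49.1 (8.66 to 1955). *Krt15*, of basal cells, had 2, 17 and 19 against 0 (at least 7.36-fold), and *Krt80* 25, 48 and 47 against 4, 7 and 6 (2.01, SE 0.48). *Krt7*, *Krt15*, *Krt17*, *Krt19* and *Krt80* were all lowest at E15 in pool 1, and the median ratio of that pool to the others was -0.78 over type I and -0.84 over type II keratins. *Krt4* had 14 and *Krt42* 19 counts over the E15 pools and 0 in the adult (at least 2.71-fold and 3.68-fold), and neither was called when any pool was left out, except *Krt4* without E15 pool 2 and *Krt42* without E15 pool 1. *Krt26* was called without adult pool 2 alone (ratio 10.4, 2.74 to 88.0). *Krt1-5* went the other way, with 0, 0 and 1 counts at E15 versus 5, 14 and 7 in the adult, a ratio of 44.8 (7.35 to 1835), or at least 9.91-fold without E15 pool 3, and *Krt76* had 13 of its 14 adult counts in pool 3.

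Several of these keratins are neighbours in the genome. In the rat assembly *Krt15* lies next to *Krt19*, *Krt17* next to *Krt42* and *Krt80* next to *Krt7*, and both genes of each pair had higher mean counts at E15. The same held for *Krt26* and *Krt28*, with 1 gene between them, and for *Krt19* and *Krt17*, with 4 between. Of the keratins in these and the next pairs, *Krt26* and *Krt76* were not called. *Krt76* lies next to *Krt4*, *Krt1-5* lies 1 gene away from *Krt15* and *Krt4* lies 2 genes away from *Krt8*, and the means of each of these pairs were higher at opposite ages. Of 8 listed squamous epithelium genes *Lor* and *Tp63* have a name here, with summed normalized counts of up to 14.1 at E15 and 0 in the adult, and their part in the keratin values was not tested. Of 13 listed desmosome and plakin genes, the anchors of keratin filaments, 7 have a name here. The adult was higher for *Dsp* (-4.32), *Pkp2* (-2.51), *Dsg2* (-1.64) and *Perp* (-0.87), and E15 for *Jup* (1.45), *Ppl* (1.35) and *Plec* (0.84), all called.

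**Figure D4:**
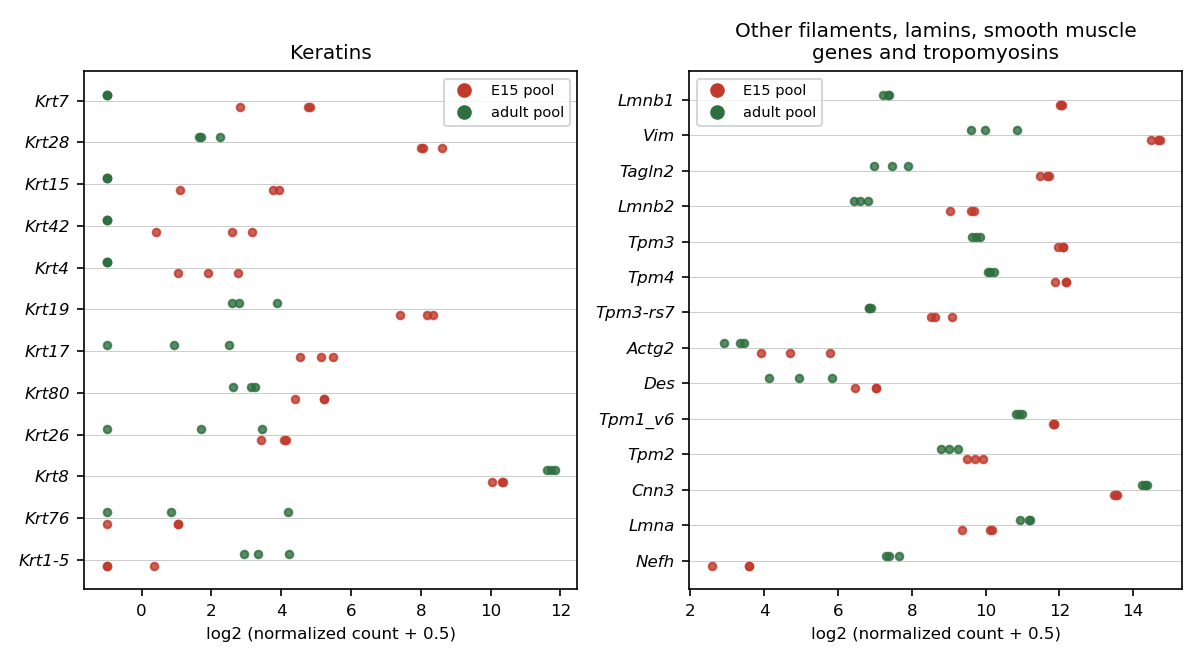
Counts of 12 keratins (left) and of 14 other intermediate filament, lamin, smooth muscle and tropomyosin genes (right), as log2 of the normalized count plus 0.5, with 1 point for each of 3 E15 (red) and 3 adult (green) pools. A pool with 0 counts lies at -1. *Krt8* is the only keratin with both ages at the right of its panel, and *Lmnb1* and *Vim* are the widest separated genes of the right panel with red to the right.

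*Vim*, the intermediate filament of mesenchyme, endothelium and neural progenitors, had 28248, 34990 and 33303 counts at E15 versus 549, 1425 and 738 in the adult (4.39, SE 0.30, 20.9-fold). It was highest among the adult pools in pool 2. Of 8 mesenchyme markers 5 were called at E15 and 3 in the adult, with sums of 39263 to 52056 normalized counts at E15 and 15528 to 15922 in the adult, and the 10 endothelial markers summed to 9726 to 14265 at E15 and 1179 to 1622 in the adult. Their part in the value of *Vim* was not tested. *Nefh*, the heavy neurofilament of mature axons, had 14, 15 and 7 counts at E15 versus 117, 155 and 114 in the adult (-4.18, SE 0.34, 18.2-fold). Of 7 oligodendrocyte genes 5 were called in the adult and 2 at E15. They summed to 1882 to 2165 normalized counts at E15 and to 14939, 6391 and 3497 in adult pools 1, 2 and 3. Their part in the value of *Nefh* was not tested.

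Among the lamins the leading gene also differed between the ages. *Lmnb1*, a B-type lamin that dividing cells express strongly, had 5203, 5353 and 5526 counts at E15 versus 105, 126 and 121 in the adult (4.73, SE 0.12, 26.5-fold), and *Lmnb2* 636, 1003 and 1047 and 61, 74 and 82 (2.84, SE 0.21, 7.16-fold). *Lmna*, which encodes the A-type lamins of differentiated cells, had 798, 1507 and 1412 counts at E15 versus 1627, 1807 and 1424 in the adult (-1.18, SE 0.20, 2.26-fold). *Lmna* took 16.3% ± 3.77 of lamin counts at E15 and 89.4% ± 1.69 in the adult, and *Lmnb1* 71.9% ± 5.66 and 6.52% ± 0.819. The raw counts of *Lmna* overlapped between the ages, and its normalized counts did not.

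Proteins that tie actin to membranes were mostly higher at E15. *Msn*, the linker moesin, had 3160, 3543 and 3418 counts at E15 versus 942, 903 and 875 in the adult (1.11, SE 0.10, 2.16-fold). *Vil1*, which bundles actin in microvilli, had 24, 9 and 13 against 1, 2 and 0 counts, a ratio of 8.91 (2.86 to 44.8), or 17.4 (2.97 to 701) without adult pool 2. *Epb4.2* and *Epb4.1*, of the membrane skeleton first described in red cells, had 229, 283 and 200 against 5, 6 and 5 counts (4.67, SE 0.31, 25.4-fold) and 4441, 4257 and 3843 against 644, 624 and 716 (1.88, SE 0.12, 3.67-fold). All 8 erythroid markers measured, of 10 listed, were called at E15, with sums of 62347 to 108824 normalized counts at E15 and 9755 to 13693 in the adult. Their part in the values of *Epb4.2* and *Epb4.1* was not tested.

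Of the other protein 4.1 genes, *Epb4.1l2* had 3192, 4131 and 3248 counts at E15 versus 114, 157 and 93 in the adult (4.08, SE 0.19, 16.9-fold), whereas *Epb4.1l1* had 1685, 2190 and 2011 and 1628, 2148 and 1733 (-0.69, SE 0.12, 1.61-fold higher in the adult, and 0.12 with total counts only). The share of *Epb4.1l1* in the counts of the protein 4.1 genes described here went from 16.3% ± 1.89 to 55.9% ± 2.69. *Epb4.1l3* and *Epb4.1l4a* were 1.77-fold and 2.08-fold higher at E15. Among the beta spectrins, *Sptbn1* had 13725, 17078 and 15936 and 13205, 13570 and 13276 counts (-0.56, SE 0.10), which turned to 0.24 with total counts only. *Sptbn4* had 18, 53 and 53 and 42, 54 and 37 counts and was not called.

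Single pools deviated from their age in a way that differed by gene group. In E15 pool 1 the median log2 ratio to the other E15 pools was 0.34 for mitotic kinesins, -0.25 for transport kinesins, -0.58 for actins and alpha-actinins and close to 0 for tropomyosins (-0.01) and spectrins. Over all 96 genes it was -0.15, and pool 1 was the lowest E15 pool for 50 of them, or 52.1%, against 46.8% of all genes tested. In adult pool 2 the mitotic kinesins were at -0.69 and the beta tubulins at 0.31. Among the role groups of at least 5 of the 96 genes, those that deviated by more than 0.6 in some pool were the mitotic kinesins and the type I and type II keratins.

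**Figure D5:**
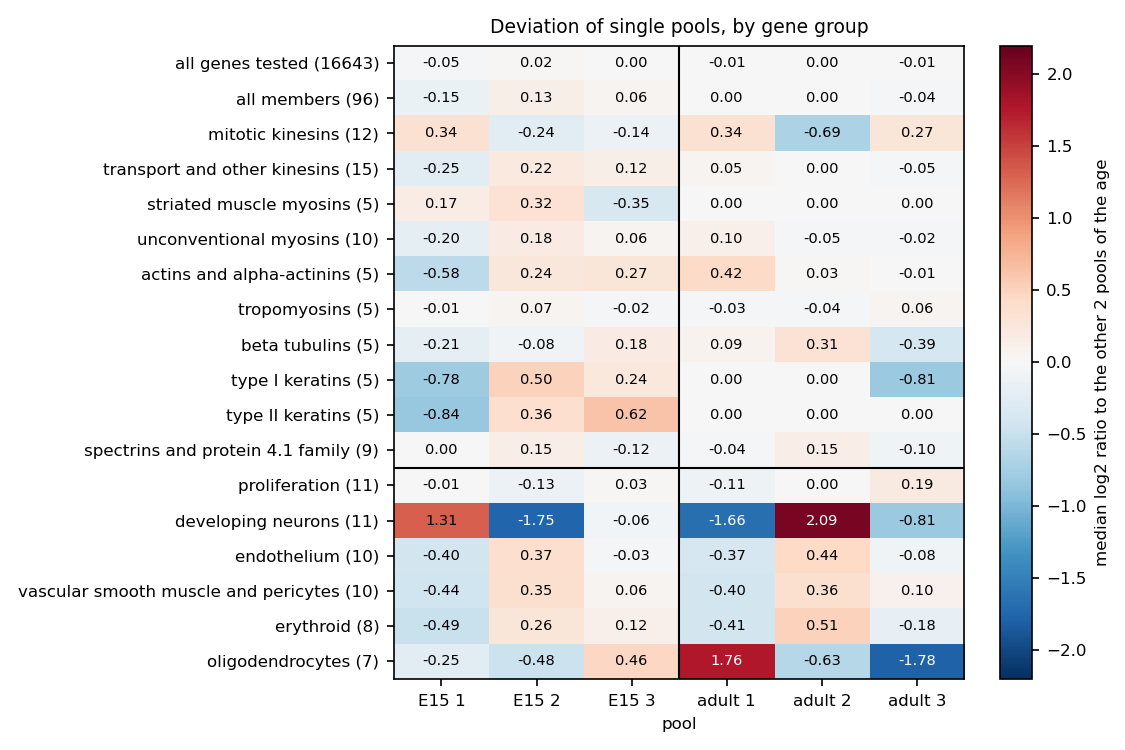
Median over genes of the log2 ratio between 1 pool and the average of the remaining pools of that age (color and printed value), for the role groups with at least 5 genes and 6 marker lists (rows, number of genes in brackets) and 6 pools (columns). Rows under the black line are marker genes outside the 96. Of the rows shown, developing neuron markers have the widest values (1.31 and -1.75 at E15, 2.09 in the adult), oligodendrocyte markers reach 1.76 and -1.78 in the adult, and the mitotic kinesins and keratins lie between -0.84 and 0.62.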

How the data were processed

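The 6 libraries, 3 from E15 and 3 from adult plexus, were grouped by the labels. The deposited counts are raw counts per Ensembl gene. The authors trimmed the reads, used Bowtie 0.12.7 for mapping (Ensembl rat release 61), discarded reads without a unique place and counted the rest with HTSeq 0.4.7p4 (union option). The use of strand is not given in the sources used here. A second table deposited by the authors holds, for 10653 genes they called with edgeR 2.4.0, log2 fold changes and log2 abundances, and p-values with adjusted p-values. Only its identifiers, names and descriptions were used.

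Genes were chosen by symbol from that table, and the results of some of them are not reported here, and both the genes and the other lists were chosen with earlier results of these data known. Every gene belongs to 1 role group. Values in every pool were given for the 3 genes of highest mean and the 4 of largest change in a group among those with a mean above 100 counts, and for others of interest chosen after their values were seen.

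Counts were fitted with edgeR 4.0.16 in R 4.3.3 (TMM factors, estimateDisp, glmQLFit, glmQLFTest, age as the only term, more than 10 counts over the 6 libraries, Benjamini-Hochberg threshold 0.05), with a biological coefficient of variation of 18.2%. TMM factors were 1.32 to 1.33 at E15 and 0.735 to 0.773 in the adult. Normalized counts are scaled to 19265016 counts. For genes without counts at an age a floor of 3 counts over its 3 pools was used, and ratios with 1 to 3 counts have exact 95% binomial intervals, both covering counting error only. No pools of 1 age were alike within sampling noise (chi-square per degree of freedom 5.63 to 59.6), so all were kept. Scripts were tested on simulated data. Promoters and gene order come from RefSeq (GRCr8), in which 94 of the 96 symbols matched, 83 directly and 11 through a synonym. Transcript lengths were not used here, so levels are not compared between genes.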

Additional observations from a re-analysis of the deposited data

How the results depend on the processing

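Alternatives were RLE, upper quartile and total count scaling, totals that omit the 10 most abundant genes, other filters, DESeq2 1.42.0, limma-voom (limma 3.58.1), an exact test of edgeR with a common dispersion, a fold change above 2, a replicate block and leaving out each pool. None was added later. Scaling mattered most. The median log2 fold change of the 96 genes was 1.92 with upper quartiles, 2.60 with total counts only and 2.26 when the 10 most abundant genes were omitted from the totals, where the median of all genes tested was 0.26, 0.95 and 0.60, and it was 1.67 with filterByExpr, which kept 84 of the genes. With total counts only, 13 of the 96 genes were called in the adult, and 9799 genes of all at E15 and 2292 in the adult; with those 10 omitted 3196 of all genes were called in the adult. Requiring a fold change above 2 left 15 of the 96 and 2979 of all genes in the adult. With total counts only, 7 genes turned to the E15 side, *Kif27* (0.14), *Kif9* (0.22), *Kifc3* (0.049), *Actn1* (0.077), *Cnn3* (0.019), *Epb4.1l1* (0.12) and *Sptbn1* (0.24). The median of the striated muscle myosins turned to -1.58 with filterByExpr and -1.88 with a mean count above 100, and that of the type II keratins to -1.48 with the latter, because their low genes were dropped. Without 1 pool, the number called at E15 was 62 to 65 and in the adult 23, the median 1.70 to 1.78, and the numbers over all genes 5009 to 6218 and 4327 to 5449. Replicate numbers did not pair the samples (correlations of same-numbered pools between -0.038 and -0.0072), and with the replicate block 63 of the genes were called at E15 and 23 in the adult. Depth limits the genes with 0 to 3 counts at an age, whose folds are bounds or wide intervals.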
